A study of Mus musculus with 12 samples.

Results

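The heat shock chaperones described here are 10 mouse genes, Hspa1a, Hspa1b, Hspa8, Hsph1, Dnaja1, Dnajb1, Chordc1, Hsp90aa1, Hsp90ab1 and Hspe1, out of 38924 gene IDs in the deposited kidney counts. They were chosen by symbol as chaperones driven by the heat shock factor HSF1 that are higher at night, and that choice was made with earlier results of these data known. All 10 were among the 16150 genes with enough reads to be tested. At night 7 of them were called higher than by day in kidneys lacking BMAL1 in the tubule, against 5.27% of all tested genes, and 8 in wild-type kidneys, against 2.87%. As the genes were chosen for being higher at night, these counts describe the choice and are not independent evidence of it. The stress-inducible HSP70 genes Hspa1a and Hspa1b had a night-day difference of about 2-fold in the knockout and about 5-fold in wild type, the largest among the members there, but the gap between the genotypes did not pass the threshold over all genes. The chosen set was called cytosolic, which holds for 9 of the genes, since Hspe1 encodes a mitochondrial protein.

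Chaperones bind unfolded or newly made proteins and help them fold or pass them on for degradation. HSP70 proteins hold short exposed stretches of a client in a cycle of ATP binding and hydrolysis, J-domain proteins bring clients and trigger hydrolysis, exchange factors of the HSP110 class release the nucleotide, and HSP90 with its cochaperones finishes the folding of kinases and steroid receptors. HSF1 binds heat shock elements, arrays of inverted nGAAn units in promoters, when unfolded proteins titrate chaperones away from it. In mouse liver HSF1 is known to bind DNA rhythmically, with most binding at the start of the dark phase, when mice are active and their body temperature is high.

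RNA of whole kidneys was sequenced as poly(A)-selected libraries in 4 groups of 3, namely KO ZT16, KO ZT4, WT ZT16 and WT ZT4. KO mice were Bmal1lox/lox/Pax8-rtTA/LC1 animals, in which doxycycline at 2 mg/ml in the drinking water for 2 weeks, started at 8 weeks of age, switches on a Cre recombinase under the Pax8 promoter of renal tubule cells and deletes part of Arntl, the gene of the clock factor BMAL1. WT mice are labelled wild-type, and whether they carried the lox alleles or received doxycycline is not said apart: the protocol on their labels is the one that names the lox mice, and it gives no separate age or treatment for WT. All groups were on a C57BL/6J background, ate chow ad libitum and lived in 12 h of light and 12 h of dark, so that ZT4 lies 4 h after lights on and ZT16 lies 4 h after lights off. Whole-kidney RNA also holds vessels, immune cells and stroma, where the Pax8 promoter is not expected to drive Cre, and in such bulk RNA fewer cells of a type and less RNA per cell cannot be told apart. The labels do not say that each library is a separate animal, and p-values then speak of the scatter among the 12 libraries, which may be technical.

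Gene counts summed to between 25628887 and 38043491 per library, and members had from 170 to 55336 counts each. Arntl itself had 12.3, 13.4 and 15.01 TMM-scaled read counts (CPM, scaled to a common library total) in KO ZT16, 15.95, 14.4 and 16.2 CPM in KO ZT4, 10.5, 8.63 and 11.03 CPM in WT ZT16 and 20.01, 15.3 and 13.8 CPM in WT ZT4. A count over the whole gene does not separate the deleted exons from the others, so it checks nothing. The BMAL1 target Dbp went with the labels, at 6.08 to 11.1 CPM in the 6 KO libraries and 20.9 to 32.3 CPM in the 6 WT libraries. All 10 of 10 proximal tubule markers were above 0 in every library, as kidney RNA should hold. One library stands apart, KO ZT16 replicate 2. Its chi-square per degree of freedom was 191 and 169 against the other 2 replicates, which differed from each other by 4.72, and 22.3% of its gene counts were mitochondrial, against 14.1% and 14.0% in those replicates. Its summed adipocyte markers were 144 CPM, against 45.0 to 56.4 CPM in KO ZT4, 73.7 to 84.0 CPM in WT ZT16 and 59.1 to 72.0 CPM in WT ZT4, with 6 of 6 markers above 0 in every library. To a lesser degree WT ZT16 replicate 5 differed from its replicates, with chi-squares of 35.3 and 45.2, against 12.0 between those replicates. Its mitochondrial share was 22.4%, against 18.7% and 18.8%. The part of KO ZT16 replicate 2 in the results was not tested beyond leaving it out, and counts of called genes are also given without it.

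The RefSeq promoter table (GRCm38.p6, 250 bases before to 50 after a start site) held windows for 7 of the 10 members, all but Hspa8, Hsp90aa1 and Hsp90ab1. A pair of head-to-head units, GAANNTTC, occurred in 6 of these 7 genes, and in 9.04% of all 27025 genes with a window. The same pair followed by NNGAA, or the reverse complement of that array, which overlaps the 2-unit motif, occurred in 3 of the 7, Hsph1, Chordc1 and Hspe1, against 0.662% of all genes. Dnajb1 had neither these motifs nor the tail-to-tail pair TTCNNGAA in its 2 windows. The E-box CACGTG, the motif of BMAL1 and CLOCK, occurred in Hsph1 among the 7, against 8.09% of all genes. Both strands were searched, and these matches are letters in a window and not shown sites. As the members were chosen as driven by HSF1, the heat shock element shares beside all genes are not independent of that choice. The 160 bases from 130 before to 30 after the start follow each gene's name because they hold a heat shock element match of each of these 6 genes. A further match of Chordc1, TTCCGGAA at bases 34 to 41 from the start, lies beyond the printed stretch. Capitals mark heat shock element matches alone.
Hspa1a, chr17:34972127-34972286, minus strand: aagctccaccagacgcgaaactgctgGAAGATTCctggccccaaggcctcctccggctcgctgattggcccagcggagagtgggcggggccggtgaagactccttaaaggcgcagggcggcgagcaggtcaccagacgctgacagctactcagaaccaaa
Hspa1b, chr17:34959209-34959368, minus strand: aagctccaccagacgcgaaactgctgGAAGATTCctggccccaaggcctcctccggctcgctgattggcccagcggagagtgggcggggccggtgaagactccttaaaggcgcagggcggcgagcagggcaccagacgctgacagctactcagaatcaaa
Hsph1, chr5:149636286-149636445, minus strand: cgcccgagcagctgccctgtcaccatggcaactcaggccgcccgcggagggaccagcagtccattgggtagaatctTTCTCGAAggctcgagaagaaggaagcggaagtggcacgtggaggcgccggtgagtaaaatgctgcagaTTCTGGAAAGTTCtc
Dnaja1, chr4:40722338-40722497, plus strand: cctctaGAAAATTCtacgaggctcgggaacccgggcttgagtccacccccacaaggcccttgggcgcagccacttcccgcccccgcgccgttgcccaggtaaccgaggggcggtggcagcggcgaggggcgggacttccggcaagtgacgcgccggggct
Chordc1, chr9:18292137-18292296, plus strand: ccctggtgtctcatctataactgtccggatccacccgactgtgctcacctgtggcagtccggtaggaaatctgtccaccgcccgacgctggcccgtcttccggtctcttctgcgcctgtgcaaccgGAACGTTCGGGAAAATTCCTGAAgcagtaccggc
Hspe1, chr1:55088018-55088177, plus strand: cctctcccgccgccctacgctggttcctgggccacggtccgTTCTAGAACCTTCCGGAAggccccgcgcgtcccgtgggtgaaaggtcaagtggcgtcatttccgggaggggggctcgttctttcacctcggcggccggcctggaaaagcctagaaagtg
The Hspa1a and Hspa1b windows are 98.67% identical, differing at 4 of 300 bases, and carry the match at the same place, 104 to 97 bases before the start. In Chordc1 and Hspe1 the units run on as an unbroken array, close to the start in Chordc1 and 89 to 72 bases before it in Hspe1. Hsph1 has 2 start sites in the table, both with a match, and the second is shown. Dnaja1 has 3, of which the first is shown, and the windows of the other 2 hold no match.

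As chosen, the members were higher at night than by day, and nothing further is read from the shares over all genes given beside them. All 10 fitted ZT16 over ZT4 differences were above 0 in both genotypes, with a median log2 difference of 0.90 in KO and 1.07 in WT, against -0.01 in each over all tested genes. In KO 7 members rose (edgeR, adjusted p under 0.05), against 5.27% of all tested genes called higher. In WT 8 rose, against 2.87% of all genes. Hsp90ab1 and Hspe1 missed the threshold in both genotypes, and Hspa1a missed it in KO. DESeq2 called Hspe1 in KO (adjusted p = 0.0197) and WT (adjusted p = 0.0252) and Hspa1a in KO (adjusted p = 0.0191). Library values at ZT16 lay wholly above those at ZT4 for 9 members in KO (21.1% of all genes) and for 10 in WT (21.3% of all genes). Without KO ZT16 replicate 2 the counts were 9 in KO (3.85% of all genes) and 10 in WT (17.5% of all genes), where that library is in neither group and the share called among all genes went up with the members. Other measures moved with the time of day. The mitochondrial share of gene counts was 14.0% to 22.3% in KO ZT16, 12.6% to 12.8% in KO ZT4, 18.7% to 22.4% in WT ZT16 and 16.3% to 18.0% in WT ZT4, without overlap between night and day in either genotype. Of 6 fibroblast markers 4 were called lower at night in KO and 2 in WT, and their sum was 192 to 248 CPM in KO ZT16, 268 to 288 CPM in KO ZT4, 231 to 256 CPM in WT ZT16 and 247 to 320.1 CPM in WT ZT4. Of 5 thick limb markers 3 were called higher at night in KO and 0 in WT, with sums of 5946 to 7899 CPM in KO ZT16, 4851 to 5004 CPM in KO ZT4, 6727 to 8261 CPM in WT ZT16 and 5841 to 6422 CPM in WT ZT4. Podocyte sums were lower at night without overlap, at 166 to 230 CPM against 267 to 282 CPM in KO. In WT they were 166 to 209 CPM against 214 to 263 CPM. Principal cell sums were higher at night without overlap, at 436 to 456 CPM against 406 to 431 CPM in KO. In WT they were 432 to 466 CPM against 343 to 385 CPM. In KO alone, proximal tubule sums were higher and intercalated cell sums lower at night without overlap. In WT alone adipocyte sums were higher. No marker of these lists was at 0 in any library, and the part of these measures in the night-day differences was not tested.

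**Figure D1:**
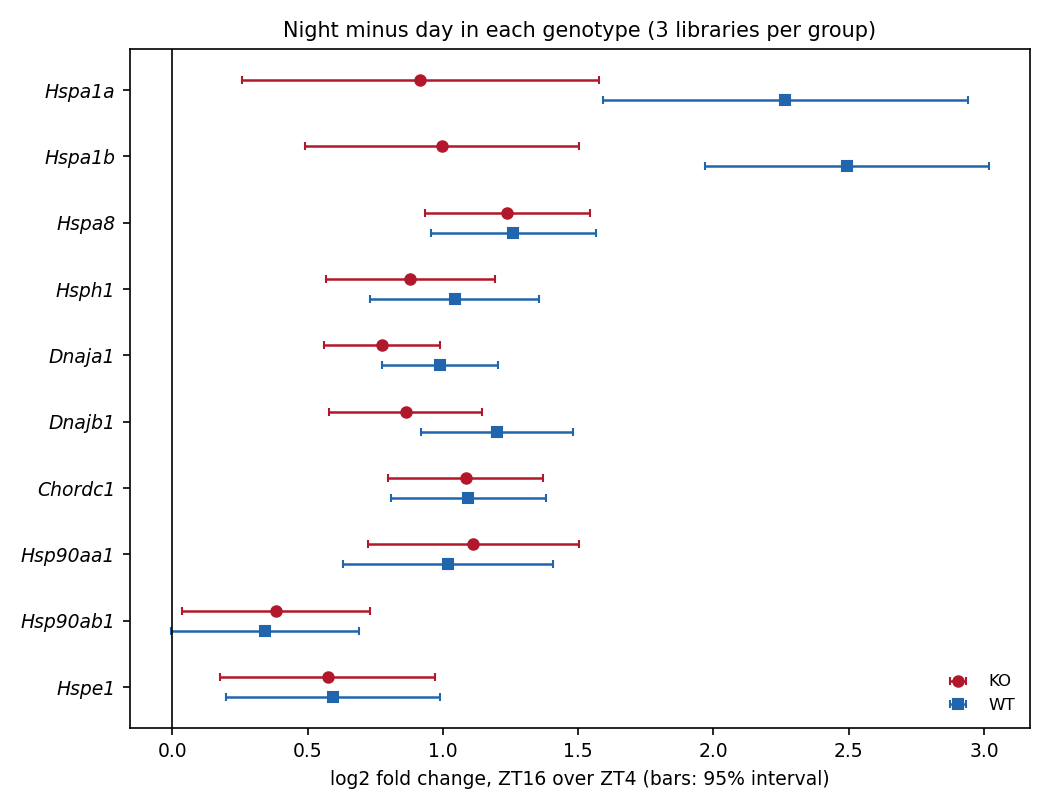
Fitted log2 fold change of ZT16 over ZT4 for each member, with KO as red circles, WT as blue squares and bars for the 95% interval (3 libraries per group). The 2 points of Hspa1a and Hspa1b lie far apart, at 0.92 and 0.996 in KO and 2.27 and 2.49 in WT, while those of Hspa8, Chordc1, Hsp90ab1 and Hspe1 nearly coincide.

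Per length of exon, Hsp90ab1 had the highest level of the members in every group and Hspa1a the lowest. These places depend on how much of each gene is unique. Of the 50-base windows in the longest transcript, 66.3% for Hspa1a, 62.3% for Hspa1b, 58.5% for Hsp90aa1 and 52.7% for Hspa8 also occur in other genes. For the other members it was 0% (Hsph1) to 28.8% (Dnaja1), with 4.49% for Hsp90ab1. Reads lost or shared for this reason may have shifted the places, which was not tested. Hsp90ab1 averaged 434 ± 109 reads per kilobase scaled in the same way (RPKM, SD, n = 3) in KO ZT16, 333 ± 31 in KO ZT4, 508 ± 32 in WT ZT16 and 401 ± 37 in WT ZT4. Hspa8 came next in each group, at 188 ± 37, 79.8 ± 4.6, 237 ± 31 and 99.0 ± 8.4 RPKM in the same order. Neither of these levels overlapped with its neighbour in any group. Hspe1 was the third, from 41.2 RPKM in KO ZT4 to 74.4 RPKM in WT ZT16, followed by Hsp90aa1, whose values overlapped with those of Hspe1 at ZT16 in both genotypes and not at ZT4. Hsph1 held the fifth place everywhere. Dnaja1, Dnajb1 and Chordc1 followed at 7.17 to 22.8 RPKM, with overlapping libraries between Dnajb1 and Chordc1 in all 4 groups. Hspa1b was the ninth at 10.3, 5.16 and 4.50 RPKM in KO ZT16, KO ZT4 and WT ZT4, but at WT ZT16 it averaged 25.3 RPKM, in sixth place and overlapping with Dnaja1.

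**Figure D2:**
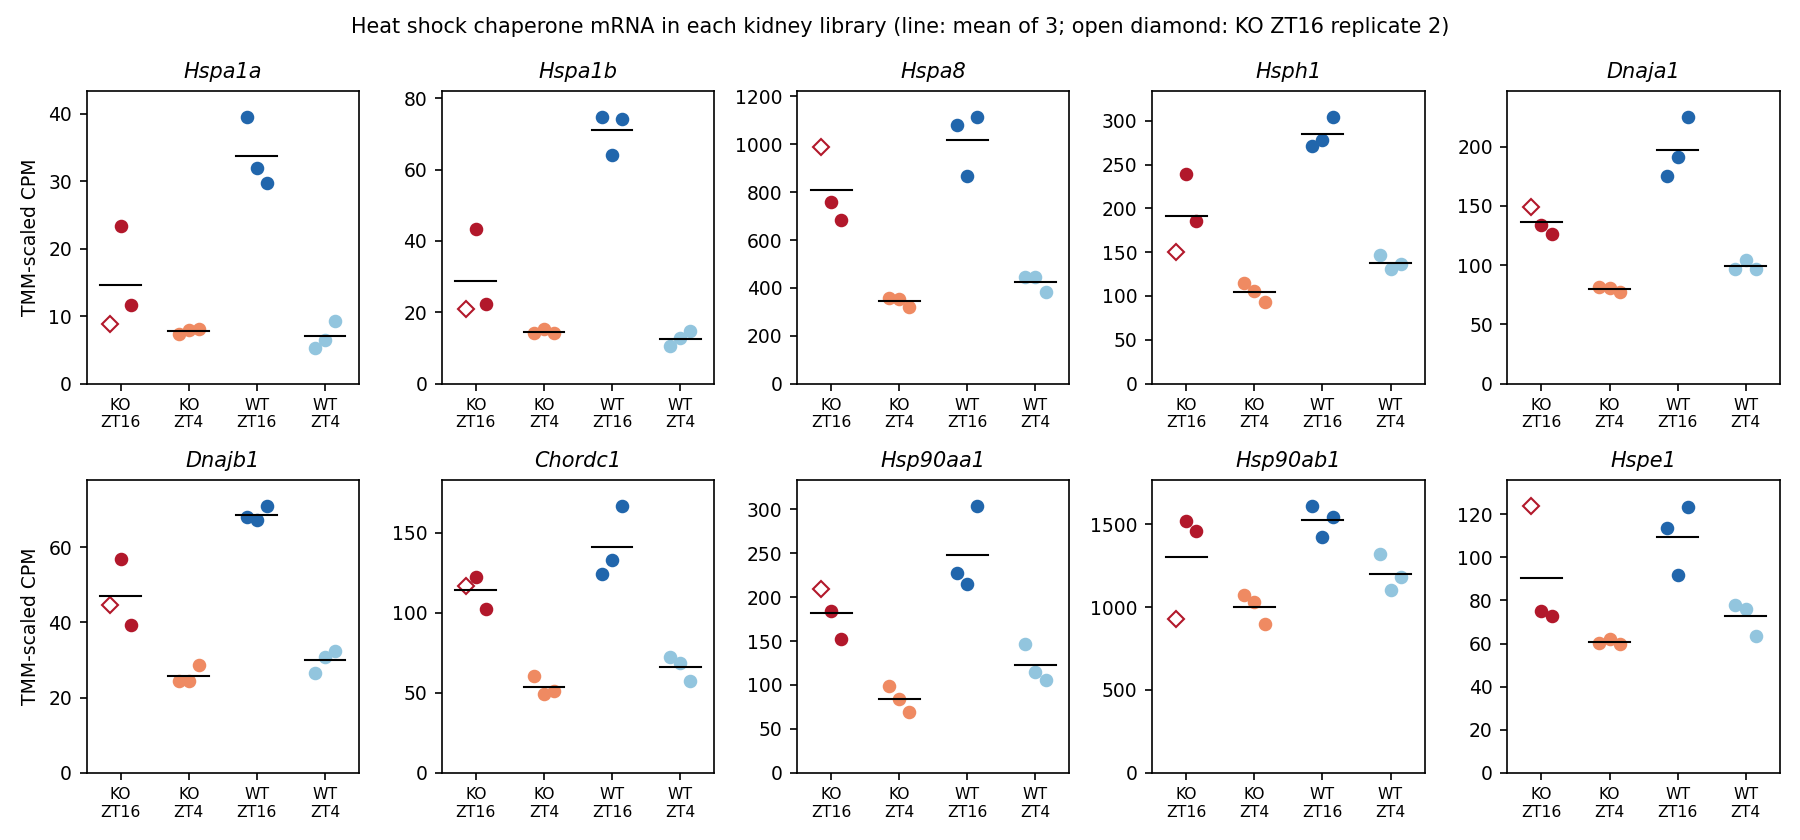
Level of each member in each of the 12 libraries, in TMM-scaled CPM on axes that start at 0, with a line at the mean of 3 and an open diamond for KO ZT16 replicate 2. Hspa1a and Hspa1b are high in the 3 WT ZT16 libraries, while Hspa8, Dnaja1 and Chordc1 are high at ZT16 in both genotypes.

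Hspa1a (chr17:34969190-34972156, GRCm38, minus strand) and Hspa1b (chr17:34956436-34959238, minus strand) encode the stress-inducible HSP70, which is low in unstressed cells. Hspa1b had 20.8, 43.4 and 22.2 CPM in KO ZT16 replicates 2, 4 and 6, 14.1, 15.2 and 14.1 CPM in KO ZT4, 74.7, 64.2 and 74.1 CPM in WT ZT16 and 10.5, 12.7 and 14.6 CPM in WT ZT4. The 3 WT ZT16 libraries were above every other library, the KO ZT16 libraries came next without overlap, and the ZT4 libraries of both genotypes overlapped. Hspa1b rose at night 1.99-fold in KO (log2 0.996 ± 0.23 SE, edgeR, adjusted p = 0.0252) and 5.63-fold in WT (log2 2.49 ± 0.24, adjusted p = 0.000247). Hspa1a had 8.79, 23.4 and 11.6 CPM in KO ZT16, 7.34, 7.89 and 8.10 CPM in KO ZT4, 39.5, 32.0 and 29.8 CPM in WT ZT16 and 5.32, 6.39 and 9.31 CPM in WT ZT4. KO ZT16 replicate 4 lay between the WT ZT16 libraries and the rest, and replicates 2 and 6 lay just above KO ZT4. Its night-day difference was 1.89-fold in KO (log2 0.92 ± 0.30, adjusted p = 0.0654) and 4.81-fold in WT (log2 2.27 ± 0.31, adjusted p = 0.00249).

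Both Hspa1 genes rest on few libraries in the KO. Without KO ZT16 replicate 4 the night-day difference in KO was 0.39 for Hspa1a and 0.57 for Hspa1b on the log2 scale, where Hspa1b was still called, and without replicate 2 it was 1.18 for each, with adjusted p = 0.0123 and 0.00447. The call of Hspa1b in KO was lost without any 1 of the KO ZT4 libraries, with log2 differences of 0.98, 1.03 and 0.98 (adjusted p = 0.0803, 0.0882 and 0.0918 without replicates 2, 4 and 6). The genes are near copies, and of the 50-base windows in the longest transcript 66.3% of those of Hspa1a and 62.3% of those of Hspa1b also occur in other genes, mostly in each other, so reads may have been lost or shared between them. Of the exonic bases of Hspa1a 19.01% overlap Gm20481 on the other strand, which had 0 to 3 counts per library. Those of Hspa1b overlap no other gene. The part of this overlap in the level of Hspa1a was not tested. The ratio of Hspa1b to Hspa1a stayed between 1.57 and 2.49 in all 12 libraries. With their counts summed the night-day difference was 0.97 ± 0.25 in KO (adjusted p = 0.0358) and 2.42 ± 0.26 in WT (adjusted p = 0.000509).

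Hspa8 (chr9:40800984-40810087, plus strand) encodes the constitutive HSP70, which also strips clathrin from vesicles. It had 987, 757 and 685 CPM in KO ZT16, 356, 354 and 320.4 CPM in KO ZT4, 1079.5, 867 and 1114 CPM in WT ZT16 and 446, 447 and 384 CPM in WT ZT4. Night and day did not overlap in either genotype, and at ZT16 KO replicate 2 fell within the WT range. Hspa8 rose 2.36-fold in KO (log2 1.24 ± 0.14, adjusted p = 0.00128) and 2.39-fold in WT (log2 1.26 ± 0.14, adjusted p = 0.000533), the smallest adjusted p among the members in KO. Of the summed RPKM of Hspa1a, Hspa1b and Hspa8, the 2 inducible genes made up 4.32%, 11.7% and 6.91% in KO ZT16, 8.29%, 8.95% and 9.45% in KO ZT4, 13.7%, 14.3% and 12.3% in WT ZT16 and 5.06%, 6.04% and 8.55% in WT ZT4. The inducible share was thus higher at night than by day in all WT libraries, and overlapped between night and day in KO. Of the windows of Hspa8, 52.7% also occur in other genes.

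The partners of HSP70 rose at night in both genotypes. Hsph1 (chr5:149614287-149636376, minus strand), an HSP110 exchange factor, had 150.05, 239 and 186 CPM in KO ZT16, 114, 105 and 93.0 CPM in KO ZT4, 272, 278 and 304 CPM in WT ZT16 and 147, 130.2 and 137 CPM in WT ZT4. All KO ZT16 libraries lay below all WT ZT16 libraries, and replicate 2 was just above the highest WT ZT4 library. Hsph1 rose 1.84-fold in KO (log2 0.88 ± 0.14, adjusted p = 0.00808) and 2.06-fold in WT (log2 1.04 ± 0.14, adjusted p = 0.00252).

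Dnaja1 (chr4:40722150-40737149, plus strand), a J-domain cochaperone of HSP70, had 149, 134 and 126 CPM in KO ZT16, 81.7, 80.3 and 77.1 CPM in KO ZT4, 175, 191 and 225 CPM in WT ZT16 and 96.7, 104 and 97.0 CPM in WT ZT4. The 4 groups did not overlap, in the order WT ZT16, KO ZT16, WT ZT4 and KO ZT4. It rose 1.71-fold in KO (log2 0.77 ± 0.10, adjusted p = 0.00259) and 1.98-fold in WT (log2 0.99 ± 0.10, adjusted p = 0.000254). Of its exonic bases 7.05% overlap Smu1 on the other strand. Dnajb1 (chr8:83608193-83612653, plus strand), the J-domain partner of HSP70 that is itself strongly heat-inducible, had 44.5, 56.9 and 39.3 CPM in KO ZT16, 24.5, 24.4 and 28.7 CPM in KO ZT4, 68.0, 67.1 and 70.9 CPM in WT ZT16 and 26.6, 30.9 and 32.3 CPM in WT ZT4. The WT ZT16 libraries stood above all others, and the ZT4 libraries of both genotypes overlapped. Dnajb1 rose 1.82-fold in KO (log2 0.86 ± 0.13, adjusted p = 0.00576) and 2.30-fold in WT (log2 1.1999 ± 0.13, adjusted p = 0.000508).

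In the HSP90 branch the inducible isoform and the cochaperone rose, and the constitutive isoform did not pass the test. Hsp90aa1 (chr12:110690605-110702728, minus strand), the heat-inducible HSP90, had 209, 184 and 152 CPM in KO ZT16, 98.8, 84.2 and 69.1 CPM in KO ZT4, 227, 214 and 303 CPM in WT ZT16 and 146, 115 and 106 CPM in WT ZT4. Night stood above day in each genotype, and KO below WT at each time, without overlap. It rose 2.16-fold in KO (log2 1.11 ± 0.18, adjusted p = 0.00772) and 2.03-fold in WT (log2 1.02 ± 0.18, adjusted p = 0.00827); without WT ZT4 replicate 5 the adjusted p in WT was 0.0526. Chordc1 (chr9:18292125-18317442, plus strand), a cochaperone with paired cysteine- and histidine-rich domains that binds HSP90, had 117, 123 and 102 CPM in KO ZT16, 60.6, 49.4 and 51.3 CPM in KO ZT4, 124, 133 and 166 CPM in WT ZT16 and 72.4, 68.6 and 57.3 CPM in WT ZT4. At night the highest KO library lay just below the lowest WT library, and by day the genotypes overlapped. Chordc1 rose 2.12-fold in KO (log2 1.08 ± 0.13, adjusted p = 0.00250) and 2.14-fold in WT (log2 1.09 ± 0.13, adjusted p = 0.00105).

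Hsp90ab1 (chr17:45567775-45573271, minus strand), the constitutive HSP90, had 926, 1518 and 1461 CPM in KO ZT16, 1072, 1029 and 895 CPM in KO ZT4, 1607, 1421 and 1542 CPM in WT ZT16 and 1322, 1103 and 1182 CPM in WT ZT4. KO ZT16 replicate 2 was the low exception, among the KO ZT4 libraries, while in WT night and day did not overlap. The difference was 1.304-fold in KO (log2 0.38 ± 0.16, adjusted p = 0.110) and 1.27-fold in WT (log2 0.34 ± 0.16, adjusted p = 0.177). Without replicate 2 it was 0.57 ± 0.10 in KO (adjusted p = 0.00462) and 0.35 ± 0.09 in WT (adjusted p = 0.00896). Of the summed RPKM of both HSP90 genes Hsp90aa1 made up 7.35% to 14.7% in KO ZT16, 5.56% to 6.57% in KO ZT4, 9.74% to 13.05% in WT ZT16 and 6.41% to 7.78% in WT ZT4, so that the share was larger at night in both genotypes. Of the 50-base windows of Hsp90aa1 58.5% also occur in other genes, against 4.49% of those of Hsp90ab1, so reads of Hsp90aa1 may have been lost or shared, which bears on its level and this share.

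Hspe1 (chr1:55088132-55091307, plus strand) encodes the lid of the mitochondrial chaperonin, whose barrel is the product of the neighbouring Hspd1. It had 124, 74.9 and 72.8 CPM in KO ZT16, 60.4, 62.3 and 59.6 CPM in KO ZT4, 114, 91.6 and 124 CPM in WT ZT16 and 78.1, 76.1 and 63.7 CPM in WT ZT4. KO ZT16 replicate 2 was as high as the highest WT ZT16 library, and the other 2 KO ZT16 libraries lay within the range of WT ZT4. The difference was 1.49-fold in KO (log2 0.57 ± 0.18, adjusted p = 0.0596) and 1.51-fold in WT (log2 0.59 ± 0.18, adjusted p = 0.0684). Without replicate 2 it was 0.28 ± 0.11 in KO (adjusted p = 0.134) and 0.60 ± 0.10 in WT (adjusted p = 0.00102). With GC and length offsets it was 0.24 in KO and 0.32 in WT, where it was called (adjusted p = 0.0233). Hspd1, which lies head to head with Hspe1 and overlaps 7.60% of its exonic bases on the other strand, differed between night and day by -0.08 ± 0.11 in KO (adjusted p = 0.635) and 0.06 ± 0.11 in WT (adjusted p = 0.731).

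The size of the day-night difference was then compared between genotypes, as the interaction of genotype and time. For Hspa1b the log2 difference in KO was lower than that in WT, and likewise for Hspa1a, so the night-day ratio in KO was 0.354 and 0.392 times that in WT. Neither passed over all genes (edgeR, Hspa1b -1.498 ± 0.33, unadjusted p = 0.000621, adjusted p = 0.669; Hspa1a -1.35 ± 0.43, unadjusted p = 0.00815, adjusted p = 0.9996). Of the 10 members 0 were called, against 0.0186% of all genes, and these 2 were the members at an unadjusted p under 0.05, against 3.34% of all genes. DESeq2 called 1 member, Hspa1b (-1.49, adjusted p = 0.0170), and limma voom called 0. Without KO ZT16 replicate 2 edgeR again called 0 (0.0489% of all genes), with -1.32 ± 0.28 for Hspa1b and -1.09 ± 0.34 for Hspa1a, and without KO ZT16 replicate 4 it called Hspa1b (-1.92, adjusted p = 0.00336). Over all 12 leave-one-out fits the value of Hspa1b lay between -1.92 and -1.32 and that of Hspa1a between -1.88 and -1.09.

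The other 8 members had interaction values between -0.34 and 0.09, and each 95% interval included 0. The intervals ran from -0.73 to 0.06 for Dnajb1, from -0.51 to 0.09 for Dnaja1, from -0.60 to 0.27 for Hsph1 and from -0.45 to 0.40 for Hspa8. For Chordc1 the interval ran from -0.41 to 0.39, for Hsp90aa1 from -0.45 to 0.64, for Hsp90ab1 from -0.45 to 0.53 and for Hspe1 from -0.58 to 0.54. Each interval ends short of the values fitted for the Hspa1 pair, and they do not show that night-day differences were equal. The sign of the value for Hspa8, Chordc1, Hsp90aa1, Hsp90ab1 and Hspe1 turned when single libraries were left out, and for Chordc1 also with RLE scaling and DESeq2, so no direction is given for them. The median over the 10 members was -0.09, against 0.03 over all tested genes, and -0.25 without KO ZT16 replicate 2, against -0.02 over all genes.

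**Figure D3:**
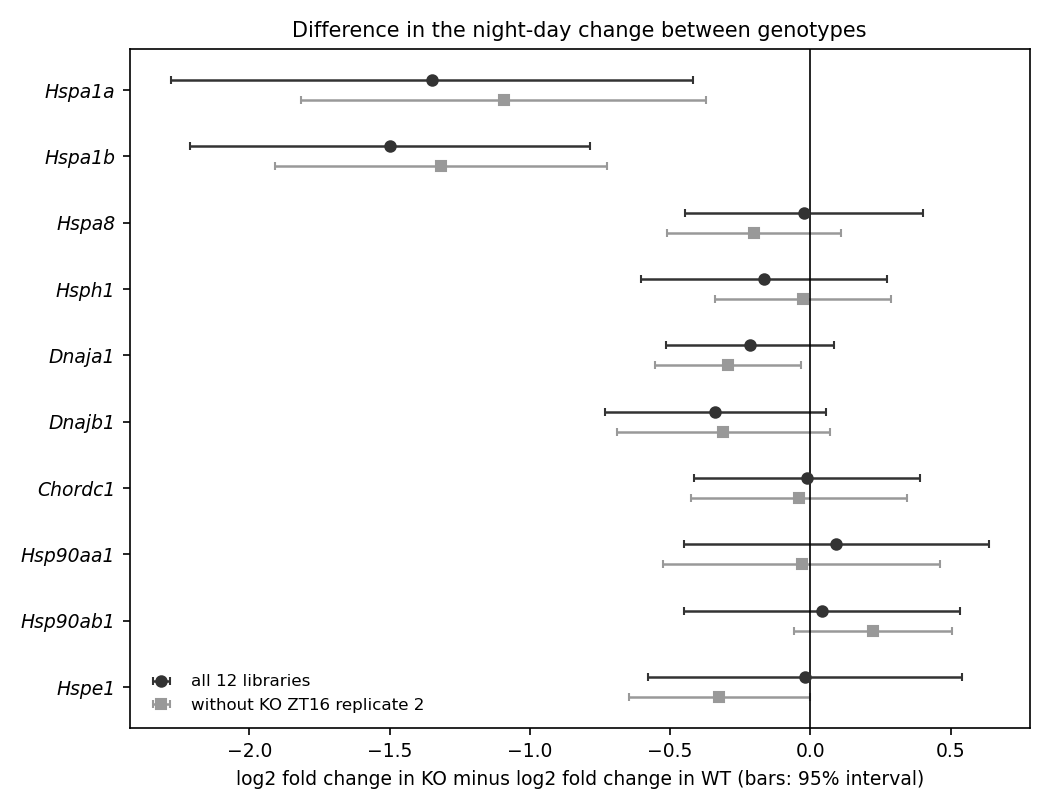
Night-day log2 difference in KO minus that in WT for each member, from all 12 libraries (dark circles) and without KO ZT16 replicate 2 (grey squares), with bars for the 95% interval. The intervals of Hspa1a and Hspa1b lie below 0 in both fits, while those of the other 8 members include 0 with all 12 libraries and those of Dnaja1 and Hspe1 lie just below 0 without that library.

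At ZT16, 5 of the 10 members were called lower in KO than in WT. These were Hspa1b (-1.299 ± 0.23, edgeR, adjusted p = 0.00609), Hspa1a (-1.202 ± 0.29, adjusted p = 0.0409), Hsph1 (-0.57 ± 0.14, adjusted p = 0.0448), Dnajb1 (-0.55 ± 0.13, adjusted p = 0.0322) and Dnaja1 (-0.53 ± 0.10, adjusted p = 0.00798), against 1.96% of all genes called lower. These 5 are the inducible HSP70 pair and the 3 partners of HSP70, and the constitutive Hspa8 was not among them (-0.33 ± 0.14, adjusted p = 0.253). All 10 fitted values were below 0, with a median of -0.49 against 0.02 over all genes. The KO libraries lay wholly below the WT libraries for 7 members, the 5 called and Chordc1 and Hsp90aa1, against 7.95% of all genes. The members were chosen as higher at night with earlier results known, so the ZT16 libraries may have had a part in the choice. The counts and the median set beside all genes are therefore not independent of that choice. Hspa1b and Dnaja1 kept their calls without any 1 of the 12 libraries. The count fell to 2 without KO ZT16 replicate 6, KO ZT4 replicate 2 or 4, or any 1 WT ZT16 library, to 3 without KO ZT4 replicate 6 or WT ZT4 replicate 3, and was 8 without KO ZT16 replicate 2 (16.5% of all genes), the added genes being Hspa8, Hsp90aa1 and Hspe1.

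At ZT4 the inducible pair did not stand below WT. The KO minus WT values were 0.15 ± 0.31 for Hspa1a and 0.20 ± 0.24 for Hspa1b, and the libraries overlapped. The other 8 were between -0.54 for Hsp90aa1 and -0.21 for Dnajb1, and 0 of 10 members were called (edgeR, 1.66% of all genes called lower). At an unadjusted p under 0.05 there were 5, Hspa8, Hsph1, Dnaja1, Chordc1 and Hsp90aa1, against 8.71% of all genes, while DESeq2 called 1, Dnaja1, and limma voom 0. KO libraries lay wholly below WT libraries for 6 members, Hspa8, Hsph1, Dnaja1, Hsp90aa1, Hsp90ab1 and Hspe1, against 18.4% of all genes. In the fit without KO ZT16 replicate 2, Hspa8, Hsph1, Dnaja1 and Hsp90aa1 were called, against 7.48% of all genes. The mitochondrial share moved with genotype too, at 12.6% to 14.1% in 5 of the KO libraries and 22.3% in the sixth, against 16.3% to 22.4% in the WT libraries. Of the marker sums, those of macrophages and of the distal convoluted tubule did not overlap between genotypes at either time. Macrophage sums were 118 to 141 CPM in KO ZT16, 155 to 172 in WT ZT16, 134 to 139 in KO ZT4 and 153 to 232 in WT ZT4. Distal convoluted tubule sums were 1123 to 1235, 941 to 1076, 1124 to 1228 and 900 to 1074 CPM in the same order. The other marker sums overlapped at ZT16. At ZT4 only those of fibroblasts and red blood cells overlapped. KO sums at ZT4 were lower for proximal tubule (35737 to 38244 CPM, against 43326 to 54281 CPM in WT), thick limb, endothelial, lymphocyte and adipocyte markers. They were higher for principal cell (406 to 431 CPM, against 343 to 385 CPM in WT), intercalated cell and podocyte markers. The part of these measures in the KO against WT differences was not tested.

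**Figure D4:**
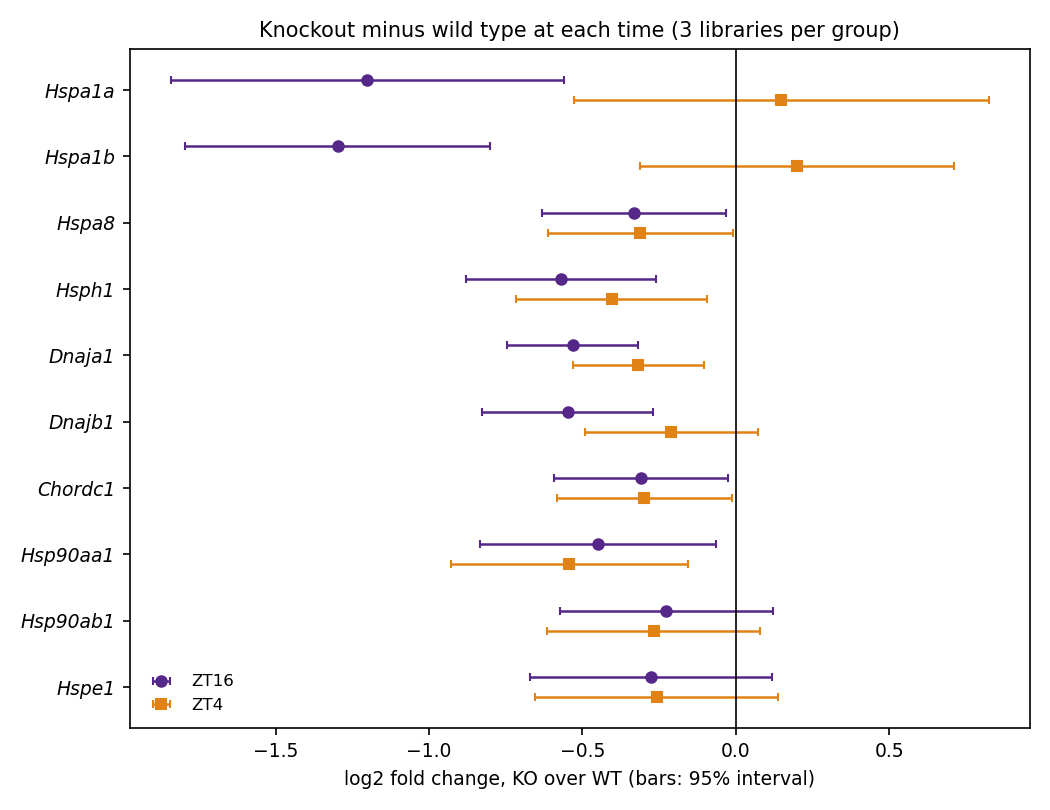
Log2 fold change of KO over WT for each member at ZT16 (purple circles) and ZT4 (orange squares), with bars for the 95% interval. At ZT16 Hspa1a and Hspa1b stand at -1.202 and -1.299, while at ZT4 they are near 0 and the other 8 members lie between -0.54 and -0.21.

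Other chaperone genes were read from lists chosen with earlier results known, and their counts stand beside 5.27% of all tested genes called higher and 5.20% called lower at night in KO, and 2.87% and 3.63% in WT. Leaving out KO ZT16 replicate 2, these shares were 3.85% and 4.15% in KO and 17.5% and 15.9% in WT, so that counts in WT go up in that fit for genes at large. Of 18 HSP90 cochaperones 9 rose at night in KO and 8 in WT, and 0 fell. Ahsa2, an activator of the HSP90 ATPase, rose by 1.14 ± 0.14 in KO (edgeR, adjusted p = 0.00259) and 1.11 ± 0.14 in WT (adjusted p = 0.00170) on the log2 scale. Fkbp5, which tunes the glucocorticoid receptor on HSP90 and is itself a glucocorticoid target, rose by 0.81 and 0.85, Ahsa1 by 0.65 in each, and Stip1, the adaptor that hands clients of HSP70 to HSP90, by 0.65 and 0.68. The median over the list was 0.32 in KO and 0.31 in WT. Of 12 other HSF1 targets 3 rose in KO and 4 in WT. Hspb1, a small heat shock protein, rose by 0.82 and 0.91, Hspa4l, an HSP110 protein, by 0.53 and 0.51, and Zfand2a, a proteasome-linked stress protein, by 0.45 and 0.39, while Dnajb4 was called in WT (0.87, adjusted p = 0.00764) and had 0.48 in KO (adjusted p = 0.0561). That list had 6 in KO and 9 in WT without KO ZT16 replicate 2, and the HSP90 cochaperones had 8 and 10.

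Among 16 tested genes of the wider HSP70 family and its exchange factors 4 rose in KO, against 5.27% of all genes. These were Hspa13, Hspa4l, Hspbp1 and Bag2, by 0.29 to 0.56. In WT 1 rose, Hspa4l, against 2.87% of all genes. Of 18 other J-domain proteins tested 2 rose in KO and 5 in WT, with Dnaja4 at 0.59 and 0.78. Of 14 subunits of the cytosolic chaperonin TRiC and of prefoldin 4 rose in KO and 1 in WT, Cct7 at 0.55 and 0.54 being called in both, and without KO ZT16 replicate 2 the counts were 4 and 12. Endoplasmic reticulum chaperones, which answer mainly to the unfolded protein response, rose in both genotypes as well. Of these 14 genes 11 rose in KO and 8 in WT. Manf, a secreted stress-induced factor, rose by 1.52 and 1.47, Creld2 by 1.59 and 1.46, and Hspa5, the HSP70 of that compartment, by 1.37 and 1.16. Leaving out that library gave 10 in KO and 12 in WT. Of 9 mitochondrial chaperones and proteases 2 rose in KO, Trap1 and Grpel1, by 0.39 and 0.47, and 1 fell in WT, Clpx. Leaving out KO ZT16 replicate 2, these 9 had 0 in KO, and 4 that rose and 2 that fell in WT, and the 18 J-domain proteins had 4 that rose and 1 that fell in KO and 9 and 1 in WT. The 16 genes of the HSP70 family then had 4 that rose in KO, and 5 that rose and 2 that fell in WT. In the interaction 0 genes of these 7 lists were called by edgeR.

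**Figure D5:**
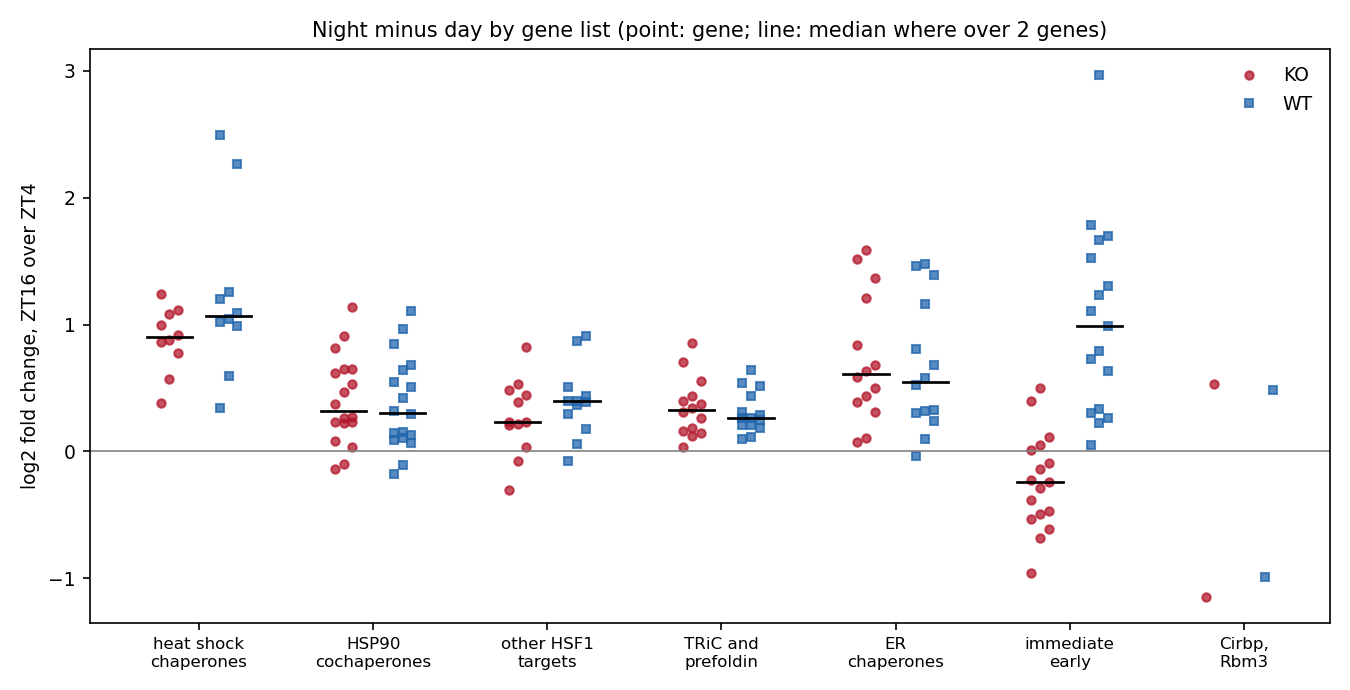
Fitted log2 fold change of ZT16 over ZT4 for every tested gene of the heat shock chaperones and of 6 lists, in KO (red circles) and WT (blue squares), with a line at the median of each list of more than 2 genes. The median of the endoplasmic reticulum chaperones is 0.61 in KO and 0.55 in WT, and that of the immediate early genes is -0.24 in KO and 0.99 in WT.

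The heat shock factors themselves did not pass the test. Hsf1 had a night-day log2 difference of 0.07 ± 0.14 in KO (edgeR, adjusted p = 0.749) and 0.04 ± 0.14 in WT (adjusted p = 0.863), and Hsf2 of 0.14 ± 0.10 and 0.05 ± 0.10. Of 4 genes of HSF factors and their binding protein 0 were called in either genotype. Without KO ZT16 replicate 2, the lowest library for Hsf1 at 15.9 CPM, Hsf1 was higher in KO than in WT at ZT16 (0.29 ± 0.09, adjusted p = 0.0274), against 0.13 ± 0.14 with it (adjusted p = 0.705). In that fit Hsbp1, the binding protein, was lower in KO at ZT16 (-0.22 ± 0.08, adjusted p = 0.0419) and rose at night in WT (0.19 ± 0.07, adjusted p = 0.0446). Cirbp, an RNA-binding protein induced by mild cold, fell at night, to 18.5, 16.9 and 21.9 CPM in KO ZT16, against 41.4, 44.6 and 40.3 CPM in KO ZT4. In WT it had 14.9, 20.01 and 13.9 CPM at ZT16, against 26.8, 32.1 and 38.5 CPM at ZT4. The log2 differences were -1.14 ± 0.16 (adjusted p = 0.00440) and -0.99 ± 0.16 (adjusted p = 0.00530). Rbm3, also known as cold-inducible, rose by 0.53 ± 0.13 in KO (adjusted p = 0.0291) and by 0.49 ± 0.13 in WT (adjusted p = 0.0451).

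Immediate early genes, which respond within minutes to stimuli and to tissue handling, were also read beside the Hspa1 pair. Of 17 tested, 7 rose at night in WT, against 2.87% of all genes. In KO 1 rose and 2 fell, against 5.27% and 5.20% of all genes. Leaving out KO ZT16 replicate 2 gave 10 in WT, where the share of all genes went up to 17.5%. In KO that fit again gave 1 that rose and 2 that fell, against 3.85% and 4.15% of all genes. At ZT16 4 were lower in KO than in WT, Egr2, Ier3, Klf6 and Fosl2, against 1.96% of all genes, and without KO ZT16 replicate 2 there were 9, against 16.5% of all genes. Egr2 had 0.650, 0.658 and 0.615 CPM in KO ZT16, 0.898, 0.278 and 1.02 CPM in KO ZT4, 5.98, 3.76 and 3.33 CPM in WT ZT16 and 0.209, 0.714 and 0.766 CPM in WT ZT4. The WT ZT16 libraries stood above all others. The median interaction of the list was -0.88, against 0.03 over all genes, and 0 of the 17 were called (Egr2, -3.10 ± 0.67, edgeR, adjusted p = 0.608). Their part in the difference of Hspa1a and Hspa1b was not tested.

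The members varied together across the 12 libraries. The Pearson correlation of each with the mean z-score of all 10 ran from 0.77 for Hsp90ab1 and 0.83 for Hspe1 to 0.98 for Dnaja1. This is a description, since the libraries share their groups and each member is part of the mean. The members were also chosen as higher at night, which by itself makes them vary together over these groups. Hspa1a and Hspa1b had r = 0.99 with each other, and Hspa1a with Hspe1 had 0.59 and Hsp90ab1 with Hspe1 0.40. Of 13809 other genes the 10 nearest to the mean were Gm15542 (r = 0.996), Gm7816 (0.985), Ahsa2 (0.977), Dnajb9 (0.974), Vps13a, Alas1, Ncoa4, Zfand2a, Ahctf1 and Ak3l2-ps, the last 6 with r of 0.966 to 0.971. Gm15542 and Gm7816 are processed pseudogenes that share 76.6% and 68.0% of their 50-base windows with Dnaja1, so reads may be shared with that member, which was not tested. Of the windows of Ahsa2 60.3% also occur in other genes. Ahsa2 had 73.1, 70.5 and 54.5 CPM in KO ZT16, 32.4, 29.9 and 27.7 CPM in KO ZT4, 80.2, 80.4 and 109.8 CPM in WT ZT16 and 44.8, 42.5 and 38.0 CPM in WT ZT4, the same order of groups as Dnaja1 and without overlap. Alas1, which makes the first enzyme of heme synthesis, averaged 308 CPM in KO ZT16, 119 CPM in KO ZT4, 496 CPM in WT ZT16 and 179 CPM in WT ZT4.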

How the data were processed

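The deposited files hold read counts per gene, 1 file per library, made by the authors with cutadapt 1.2.1, TopHat2 2.0.9 on GRCm38 and HTSeq 0.5.4p3, per the submitters' processing notes. The labels' protocols name a stranded mRNA kit; its strand setting in the counting, the counting mode and the annotation release have no statement in the labels. HTSeq's summary lines stayed out of the library sizes (no feature 3.50% to 5.96%, not uniquely aligned 30.8% to 43.0%). GENCODE M21 named 37607 of the IDs and gave exons and lengths.

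Counts were filtered with filterByExpr over the 4 groups, normalized with TMM factors and fitted by the quasi-likelihood method of edgeR 4.0.16 under R 4.3.3, in 1 model of 12 libraries with 8 residual degrees of freedom, for 5 comparisons: ZT16 against ZT4 in each genotype, their interaction, and KO against WT at each time. Adjusted p is Benjamini-Hochberg over 16150 genes, called under 0.05, and errors are SE of the log2 fold change unless given as SD. CPM are TMM-scaled, and RPKM divide them by the union of exons. The code was tested on simulated data. There it called 68% of 100 genes with a 2-fold night-day change in KO, and 31% of 100 with a 1.5-fold change. For the interaction it called 35% and 3% of these genes, so many true interactions of that size would be missed.

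Named genes are all members, the 10 genes most correlated with them (mean of at least 1 CPM), up to 4 per list and comparison by adjusted p, and Hsf1, Hsf2, Cirbp and Rbm3. Members and the 12 pathway and 12 marker lists were chosen with earlier results of these data known. Dbp as a check of the labels, Hspd1 and Alas1 as examples were chosen after their values were seen. Alternatives were RLE and upper-quartile scaling, 2 other filters, DESeq2 1.42.0, limma voom 3.58.1, a threshold of 0.01, only the libraries compared, GC and length offsets, Hspa1a and Hspa1b summed, the replicate number as a block, and each library left out. The lists without KO ZT16 replicate 2 were added after seeing the data.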

Additional observations from a re-analysis of the deposited data

How the results depend on the processing

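RLE and upper-quartile scaling, a mean of at least 5 CPM and limma voom left every count of members called as it was. The counts that moved by over 1.5 times were these. With only the libraries compared, 3 members were called between night and day in KO (36 of 15859 genes called in either direction). For KO against WT there were 0 at ZT16 (200 of 15605 genes) and 5 at ZT4 (2877 of 15851 genes). Each of these fits takes its spread from the compared groups alone. At adjusted p under 0.01, 2 were called at ZT16 in KO against WT (309 of 16150 genes). DESeq2 called 1 member for the interaction (18 of 16150 genes) and 1 for KO against WT at ZT4 (1061 of 16150 genes). GC and length offsets gave 2 at ZT4 (987 of 16150 genes). Leaving out single libraries gave 6 to 9 members between night and day in KO and 7 to 10 in WT. The interaction had 0 to 1, and KO against WT had 2 to 8 at ZT16 and 0 to 4 at ZT4. The median interaction was -0.25 to -0.043. The numbers called among all 16333 to 16398 genes tested moved too, from 181 to 3629 in KO and 220 to 5473 in WT. They ran from 3 to 8 for the interaction, 380 to 5099 for KO against WT at ZT16 and 228 to 2503 at ZT4. For the interaction, the members whose sign changed had values from -0.02 (Hspa8) to 0.09 (Hsp90aa1) with all 12 libraries. Chordc1 had 0.0040 with RLE scaling and 0.0040 with DESeq2, and leaving out single libraries gave -0.20 to 0.084 for Hspa8, -0.10 to 0.11 for Chordc1, -0.066 to 0.25 for Hsp90aa1, -0.085 to 0.22 for Hsp90ab1 and -0.32 to 0.11 for Hspe1. Hspa1a in KO against WT at ZT4 ranged from -0.018 to 0.41. The causes were not tested. Same-numbered libraries did not deviate together (r from -0.27 to 0.05 over 6 pairs). With 3 libraries per group this cannot tell whether the numbers pair them, and the labels do not say what the numbers mark. With the replicate number as a block 6 members were called in KO, 8 in WT and 0 for the interaction. With GC and length offsets added these were 7, 8 and 0. Among all 16150 genes the first of these fits called 189, 229 and 1, and the second 1146, 816 and 3. No paired analysis was possible for KO against WT because the genotypes share no replicate number. The lowest member count in a library was 170, and the effect of depth was not tested.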

Other observations

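Among the mitochondrial chaperones and proteases, Clpx, which unfolds proteins for the matrix protease ClpP and also acts on the heme synthesis enzyme, was higher in KO at both times. It had 272, 262 and 278 CPM in KO ZT16, against 145, 149 and 166 CPM in WT ZT16, and 316, 301 and 293 CPM in KO ZT4, against 193, 212 and 203 CPM in WT ZT4. No KO library overlapped with a WT library of the same time. The log2 differences were 0.82 ± 0.08 at ZT16 (edgeR, adjusted p = 7.5e-05) and 0.58 ± 0.08 at ZT4 (adjusted p = 0.00112), and 0.80 and 0.58 without KO ZT16 replicate 2. Dnajb9, a J-domain protein of the endoplasmic reticulum, went the other way at ZT16, with 75.1, 69.5 and 62.9 CPM in KO, against 95.3, 96.1 and 91.1 CPM in WT (-0.44 ± 0.09, adjusted p = 0.0138).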
